A study of Mus musculus with 4 samples.

Results

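SOX3 was bound in each of 3 replicates of NP cells at 1794 intergenic sites, which are 33.5% (95% Wilson interval 32.2 to 34.8%) of the 5358 sites common to the replicates. The cells were NP cells made from R1, a mouse embryonic stem (ES) cell line, and grown for 4 days in N2B27, which holds no serum and lets ES cells become neural progenitors. All of them were wild type and untreated, and replicates 1, 2 and 3 were biological replicates, immunoprecipitated with an antibody raised against human SOX3. Each had its own list of peaks, and the design holds no cells without SOX3 and no second time point. The cells derive from 1 line grown as a monolayer, so a site here is a site in cultured NP cells and not in a part of the embryonic brain. A control library made without the SOX3 antibody served the authors as background for calling peaks and was not analysed here.

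Overlapping peaks of the 3 lists (1 bp or more) were merged, and a merged region with a peak of each list was a common site. An intergenic site had its middle outside every protein-coding gene and more than 2000 bp but at most 100 kb from the nearest start of a protein-coding transcript. Positions are on mm9 (NCBIM37), counted from 1. The other common sites lay within 2000 bp of a start (967 promoter sites), inside a gene but farther from a start (1648 sites), or outside genes and beyond 100 kb (949 gene desert sites). No measured value entered the choice of class.

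SOX3 belongs, with SOX1 and SOX2, to the SOXB1 transcription factors, which are made in neural progenitors and help to keep them in the progenitor state. The HMG box of SOX proteins binds short sequences around ACAA in the minor groove and bends the DNA. SOXB1 proteins often bind beside a partner, and POU proteins such as POU3F2 in neural cells and POU5F1 in ES cells are partners whose site, the octamer, lies next to the SOX site in many enhancers. An enhancer can lie far from the gene it acts on, so the nearest gene of an intergenic site is a label of position and not a shown target.

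The sequences below come from the NCBIM37 reference. The first set holds 8 of the highest-ranked intergenic sites with the SOX/POU composite, a word in which a short SOX sequence is followed on the same strand by a POU sequence. They are shown so that the SOX letters and the POU letters can be read side by side. Capitals mark the 13-base composite, with 12 bases on each side, and each is written 5′ to 3′ on the strand of the word.
Dhrs9, chr2:69256196-69256232, plus strand: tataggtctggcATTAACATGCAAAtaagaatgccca
Sox21, chr14:118629555-118629591, plus strand: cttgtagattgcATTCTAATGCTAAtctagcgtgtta
Klf13, chr7:71102122-71102158, plus strand: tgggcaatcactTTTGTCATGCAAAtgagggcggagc
Mcf2l, chr8:12871488-12871524, plus strand: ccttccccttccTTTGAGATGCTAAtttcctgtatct
Galnt7, chr8:60211824-60211860, minus strand: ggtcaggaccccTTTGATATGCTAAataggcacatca
Tcf7, chr11:52100058-52100094, plus strand: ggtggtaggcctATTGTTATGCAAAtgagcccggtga
Spaca7, chr8:12504333-12504369, plus strand: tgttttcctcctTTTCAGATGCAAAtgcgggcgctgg
H2afb1, chr2:17855072-17855108, plus strand: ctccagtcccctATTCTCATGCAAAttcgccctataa

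The second set holds the central 200 bp of the highest-ranked sites next to 3 SOX genes. They are shown because they carry different SOX words, and the Sox13 window carries more of them than the others. Capitals mark the words searched, on either strand (plus strand printed). These words are AACAAA or AACAAT; then GACAAA or GACAAT; and the longer ACAATGG.
Sox2, chr3:34552836-34553035, plus strand: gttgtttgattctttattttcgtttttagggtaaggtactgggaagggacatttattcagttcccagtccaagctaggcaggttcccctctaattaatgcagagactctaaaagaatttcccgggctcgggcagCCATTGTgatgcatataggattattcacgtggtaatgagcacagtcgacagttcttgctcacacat
Sox21, chr14:118629648-118629847, plus strand: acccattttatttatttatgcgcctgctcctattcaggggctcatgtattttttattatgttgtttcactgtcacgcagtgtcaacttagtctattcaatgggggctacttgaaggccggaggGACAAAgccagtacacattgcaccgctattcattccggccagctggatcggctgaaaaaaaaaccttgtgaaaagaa
Sox13, chr1:135389133-135389332, plus strand: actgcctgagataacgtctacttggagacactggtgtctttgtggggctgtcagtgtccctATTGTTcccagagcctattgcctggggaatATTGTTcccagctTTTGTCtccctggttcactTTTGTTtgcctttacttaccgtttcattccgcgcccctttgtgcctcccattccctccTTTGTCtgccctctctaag

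The third set holds a site of another kind, the central 200 bp of a site in an annotated snRNA gene upstream of Mreg, and 5 sites with GTTCGANNC, the B-box by which RNA polymerase III genes such as tRNA genes are recognised. The first is shown because sites in snRNA genes were among the highest-scoring members. The B-box sites are shown because, with multi-copy sites included, this word was more frequent here than in the other classes of sites. In the Mreg window capitals mark SOX words, in the other sequences the B-box, written on its own strand.
Mreg, chr1:72290747-72290946, plus strand: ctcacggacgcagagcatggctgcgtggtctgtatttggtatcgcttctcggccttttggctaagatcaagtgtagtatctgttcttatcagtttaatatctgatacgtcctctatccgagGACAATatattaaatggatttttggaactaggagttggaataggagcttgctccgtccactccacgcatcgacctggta
Adamts18, chr8:116408139-116408177, minus strand: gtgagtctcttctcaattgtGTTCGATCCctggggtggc
A230052G05Rik, chr8:73389548-73389586, plus strand: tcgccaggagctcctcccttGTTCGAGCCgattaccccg
Shf, chr2:122203101-122203139, minus strand: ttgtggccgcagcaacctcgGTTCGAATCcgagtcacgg
Abhd11, chr5:135477378-135477416, plus strand: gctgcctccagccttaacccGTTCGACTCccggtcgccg
Olfr1423, chr19:12086080-12086118, minus strand: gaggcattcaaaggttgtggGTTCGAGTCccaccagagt

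Replicate 1 had 5590 intergenic peaks at this distance, replicate 2 had 2777 and replicate 3 had 13775. Merged, they made 16781 intergenic regions, of which 10.7% (10.2 to 11.2%) had a peak in each list. The share was 13.3% at promoters, 10.3% in genes and 8.42% in gene deserts. Replicate 3 alone accounted for 10292 of the intergenic regions, replicate 1 alone for 2971 and replicate 2 alone for 63. Depth cannot be read from lists without read counts, and the score of a peak, 10 times the −log10 of its MACS p-value, was therefore compared only within a list. Replicates 2 and 3 were more alike than either was with replicate 1. At 601 intergenic sites (33.5%) the first base of the peak was shared by replicates 2 and 3, against 14 sites for replicates 1 and 2 and 29 for replicates 1 and 3. Spearman's rho of the scores over the 1794 sites, all from these libraries, was 0.913 for replicates 2 and 3, 0.708 for 1 and 2, and 0.682 for 1 and 3. What replicates 2 and 3 share was not tested, and values without replicate 2 are given where a count rests on it: 2562 intergenic sites were common to replicates 1 and 3.

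The intergenic sites had a median width of 397 bp (89 to 3817 bp). By score percentile within its own list, the median site stood at 82.1 in replicate 1, 64.1 in replicate 2 and 92.7 in replicate 3. The other classes were close to these values. Promoter sites had medians of 81.3, 57.8 and 91.0, sites in genes 83.4, 67.8 and 93.3, and gene desert sites 83.2, 67.6 and 93.7. A randomly drawn intergenic site outranked a promoter site in 0.514, 0.548 and 0.564 of pairs in replicates 1, 2 and 3, and a gene desert site in 0.487, 0.476 and 0.465 of pairs. In each of the 3 replicates the intergenic median lay above that of promoter sites and below those of the other classes, and these differences were small beside the spread within a class.

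**Figure D1:**
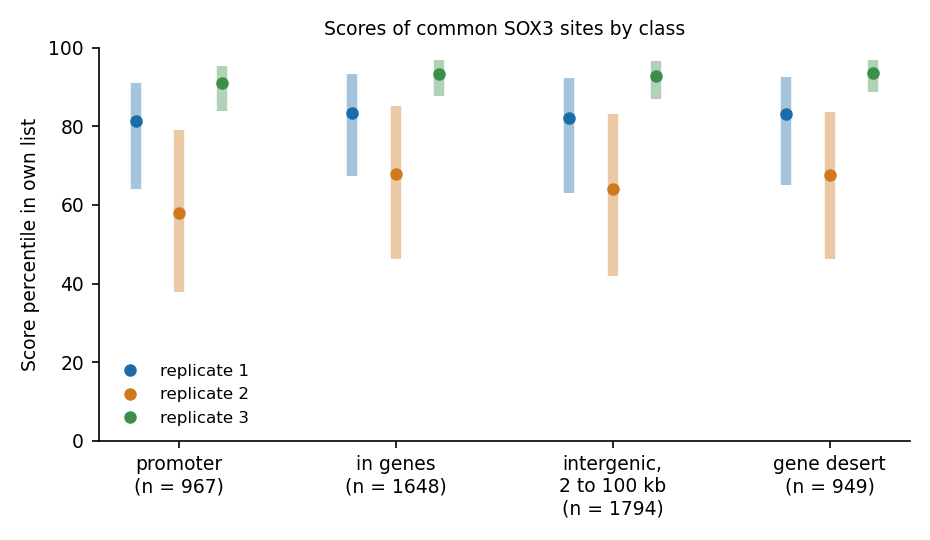
Score percentile of common SOX3 sites within the list of each replicate (vertical axis, 0 to 100) for the 4 classes of sites. Points are medians and bars run from the first to the third quartile over sites. Replicate 3 stands highest and replicate 2 lowest in every class, which is the order of the lengths of their lists (40543, 18816 and 8096 peaks in replicates 3, 1 and 2). The same common sites are a smaller share of a longer list. The median of intergenic sites lies between those of promoter and gene desert sites in each replicate.

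Sequences that occur more than once in the genome were more frequent in this class than in the others. A site was called multi-copy when more than 50% of its 50-base sequences occur in more than 1 place of the reference. This held for 339 intergenic sites (18.9%, 17.2 to 20.8%), against 13.5% of promoter sites, 13.5% of sites in genes and 10.1% of gene desert sites. The excess was 5.35 percentage points over promoter sites (95% Newcombe interval 2.46 to 8.10), 5.43 over sites in genes (2.97 to 7.87) and 8.78 over gene desert sites (6.06 to 11.4). Intervals of shares cover counting error only, since sites are not replicates. Reads of such sequence can be placed in more than 1 spot, so results are given without multi-copy sites where they differ. The central 200 bp of the intergenic sites had a median GC content of 49.5%, against 44.5% in windows 2000 bp to each side (flanks) and 42.5% in all 200 bp tiles of the intergenic space. They held a mean of 3.82 CpG, against 2.19 in the flanks.

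SOX words were more frequent in the central 200 bp than in the flanks. Words were searched exactly on both strands. AACAAA or AACAAT was in 856 of 1794 sites, or 47.7% (45.4 to 50.03%), and in 32.0% of flanks, a difference of 15.7 points (12.96 to 18.5), and 35.8% of all intergenic tiles held it. GACAAA or GACAAT, with G before ACAA, was in 35.1% of sites, 19.7% of flanks and 20.4% of tiles, a difference from flanks of 15.4 points (12.9 to 17.99). ACAATGG, a longer form that overlaps AACAAT and GACAAT where A or G precedes it, was in 14.0% of sites, 2.85% of flanks and 3.63% of tiles. Both of the shorter words were present in 15.7% of sites and 6.503% of flanks. In 538 sites (29.99%) there was neither of them nor the composite, against 54.7% of flanks, so exact words leave a part of the sites unmarked.

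Multi-copy sites differed from the others in these words. AACAAA or AACAAT was in 54.0% of the 1455 sites that were not multi-copy (flanks 32.0%), but in 20.6% of the 339 multi-copy sites (flanks 32.1%), a difference from flanks of -11.5 points (-16.8 to -5.70). GACAAA or GACAAT was in 39.1% of the first (flanks 20.2%) and in 17.99% of the second (flanks 17.6%). No word of either form, nor the composite, was in 61.1% of multi-copy sites and in 22.7% of the others.

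POU sites were rarer than SOX words, and the composite had a higher ratio of sites to flanks than any SOX word. The octamer ATGCAAAT or ATGCTAAT, the recognition sequence of POU proteins, was in 168 sites (9.36%, 8.10 to 10.8%), 1.90% of flanks and 2.41% of tiles. The SOX/POU composite, which contains all but the last base of the octamer and so overlaps it, was in 125 sites (6.97%, 5.88 to 8.24%), 0.195% of flanks and 0.291% of tiles. That is a ratio of sites to flanks of 35.7 for the composite and 4.93 for the octamer. The study reported a joined SOX/POU motif from the peaks of these same samples, so the ratio of the composite is no independent evidence. Unlike the SOX words, the composite was about as frequent in multi-copy sites (6.49%, 4.32 to 9.63%) as in the others (7.08%, 5.87 to 8.51%), and the interval of each share contains the other share.

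Within the composite, the SOX letters of the 128 matches varied. Letters 2 to 5 of the word read TTGT in 40 matches (31.3%), TTCA in 28, TTGA in 18 and TTTA in 16. Letter 4, which the word leaves free, was G in 45.3% of matches, C in 30.5%, T in 19.5% and A in 4.69%. In the 8 printed sequences, Klf13 and Tcf7 hold TTGT, while Spaca7 holds TTCA. When SOX and POU were searched as separate words, SOX followed by POU on the same strand with 1 base between them was in 35 of 1455 sites (2.41%) and 0 of 2907 flanks. No other spacing from 0 to 10 bases, in any of the 4 arrangements of order and strand, was in more than 6 sites. The next were the same order with 6 bases between (6 sites) and with 9 bases (4 sites). The study described the spacing of 1 base in a motif from these same samples, so its return here is no independent evidence.

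Among words of other families, the core of ZIC sites differed most from the flanks. CAGCAGG, bound by the ZIC zinc finger proteins of the early neural plate, was in 341 sites (19.01%, 17.3 to 20.9%), 4.91% of flanks and 4.12% of tiles, a difference from flanks of 14.1 points (12.2 to 16.1). It was in 21.4% (19.2 to 23.8%) of the 1205 sites with a SOX word and in 14.1% (11.5 to 17.1%) of the 589 without one. Only 24 of the 341 windows (7.04%) held the repeat CAGCAGCAG.

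Other families differed less. Among sites that were not multi-copy, the word CCACCC, bound by KLF and SP proteins, was in 21.3% (flanks 13.4%, tiles 11.4%), a ratio to flanks of 1.59. The control word GGGTGGG was in 9.97% (flanks 6.67%, tiles 5.40%), a ratio of 1.49. GGGTGGG contains CCACCC read on the other strand. Each of its matches is therefore also a CCACCC match, and it is no independent control for that word. CATCTG, the E-box of neurogenin-type proteins, was less frequent in sites than in flanks, with 12.2% against 16.0% (tiles 15.5%). The homeodomain core TAATTA was in 7.15% of sites and 6.47% of flanks (tiles 6.40%), a difference of 0.681 points with an interval from -0.863 to 2.35. The word of AP-1, TGACTCA or TGAGTCA, was in 3.37% of sites and 3.41% of flanks (tiles 3.20%), and the CTCF core was in 0.825% and 1.72% (tiles 0.828%).

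**Figure D2:**
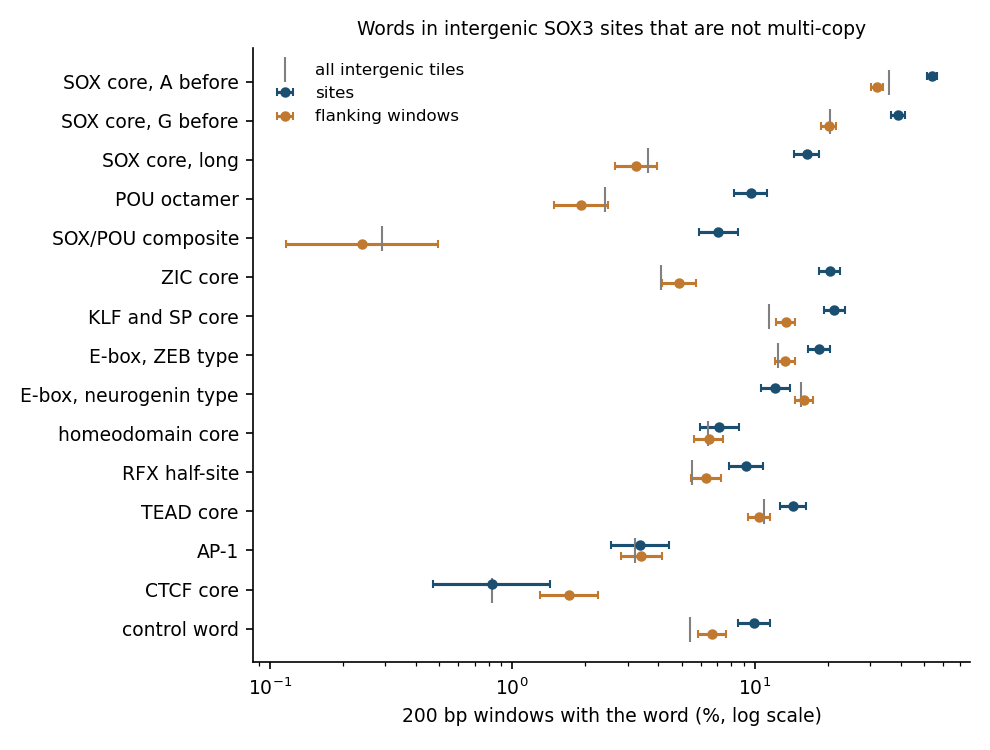
Share of 200 bp windows with each word (horizontal log axis, percent) in the 1455 intergenic SOX3 sites that are not multi-copy (blue points), their flanking windows (orange points) and all intergenic tiles (ticks), with 95% Wilson intervals. The SOX/POU composite lies farthest from its flanks (7.08% against 0.241%), and the AP-1 and homeodomain words overlap theirs.

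The words gathered at the middle of the sites. In 50 bp bins across 1453 sites that were not multi-copy, AACAAA or AACAAT was in 20.8% and 22.6% of sites in the central pair of bins. GACAAA or GACAAT reached 15.2% and 14.5% there, the octamer 3.58% and 4.06%, the composite 2.68% and 3.03%, and CAGCAGG 6.74% and 6.68%. Beyond about 200 bp from the middle each profile was flat. In the Dhrs9 and Sox21 sites the composite printed above lay 418.5 and 174.5 bp from the middle, outside the central window, so these sites are not among the 125.

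**Figure D3:**
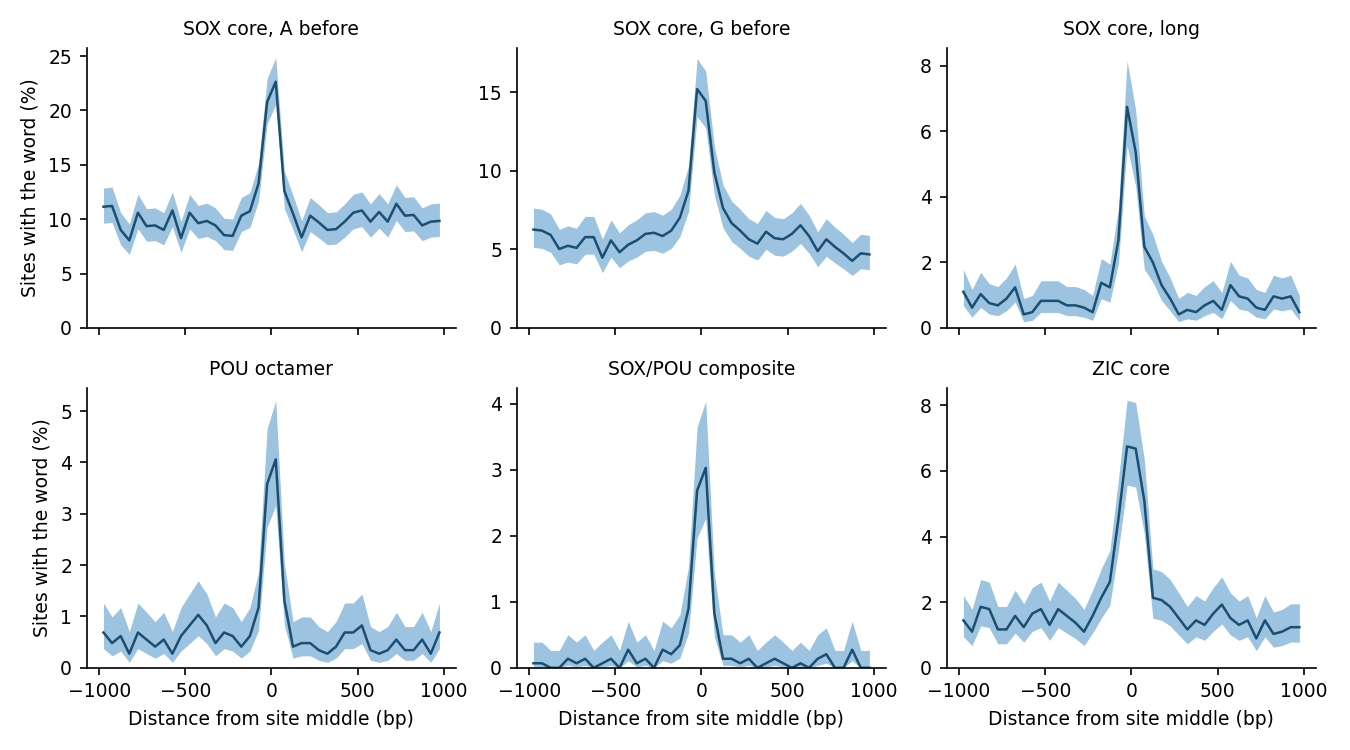
Share of 1453 intergenic sites that are not multi-copy with each word (vertical axis, percent) in 50 bp bins by distance from the middle of the site (horizontal axis, bp). Lines are shares and bands 95% Wilson intervals, and each of the 6 words peaks in the central bins.

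The words were compared between sites of low and high score. Sites that were not multi-copy were split in each replicate into 4 quartiles by score. GACAAA or GACAAT was in 35.2% of the lowest and 48.4% of the highest quartile in replicate 1, in 35.0% and 48.4% in replicate 2, and in 33.5% and 47.0% in replicate 3. The octamer was in 7.42% and 12.1% of these quartiles in replicate 1, 7.44% and 12.4% in replicate 2, and 7.42% and 12.6% in replicate 3, and the Wilson intervals of the lowest and the highest quartile overlapped in each. For the composite the values were 5.49% and 8.24%, 6.06% and 7.97%, and 5.77% and 9.07%, and their Wilson intervals overlapped in each replicate. AACAAA or AACAAT was in 50.5% and 53.8%, 46.6% and 57.7%, and 48.6% and 56.9%, and ACAATGG in 14.6% and 18.1%, 11.02% and 20.9%, and 13.2% and 19.8%. Of these, the intervals were apart only in replicate 2, for both words. CAGCAGG showed no such order, with 20.3% and 17.9%, 17.4% and 20.9%, and 18.1% and 20.1%.

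Peaks that did not recur in every list held fewer of the words. In replicate 1, the composite was in 7.03% of the 1822 peaks inside intergenic sites and in 2.07% of the other 3769 intergenic peaks. The values were 7.09% and 2.39% in replicate 2, and 6.81% and 0.812% in replicate 3. CAGCAGG was in 18.4% and 12.05% in replicate 1, 18.6% and 8.74% in replicate 2, and 17.97% and 7.13% in replicate 3. For AACAAA or AACAAT the shares were 48.1% and 34.3%, 48.7% and 38.6%, and 48.04% and 37.5%.

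The 4 classes of common sites did not hold the SOX words equally. AACAAA or AACAAT was in 33.8% of promoter sites, 13.9 points fewer than in intergenic sites (10.1 to 17.6), and in 58.4% of gene desert sites, where the intergenic share was lower by 10.7 points (interval of the difference -14.5 to -6.74). Without multi-copy sites, which are a larger share of the intergenic sites than of the other classes, these differences were 18.02 points to promoter sites (13.8 to 22.1) and -7.53 points to gene desert sites (-11.6 to -3.35). Sites in genes held it in 50.4%, and the interval of that difference included 0 (-5.98 to 0.693). The composite was in 3.41% of promoter sites, 3.56 points fewer than in intergenic sites (1.83 to 5.16), in 6.74% of sites in genes and in 8.11% of gene desert sites, and the last 2 intervals included 0. CAGCAGG was in 11.4% of promoter sites, 7.63 points fewer (4.86 to 10.3). It was in 20.1% of sites in genes and 21.9% of gene desert sites, and the intervals of both differences included 0. Promoter windows had a median GC content of 58.5%, which moves with these differences, and its part in them was not tested.

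Intergenic sites were spread over the whole range of distances. The median distance to the nearest start was 26116.5 bp, the shortest 2007 bp and the longest 99602.5 bp. The number of sites per Mb of available intergenic sequence was 2.58 at 2 to 5 kb (150 sites), 2.81 at 5 to 10 kb (243), 2.47 at 10 to 20 kb (335), 2.38 at 20 to 50 kb (585) and 2.16 at 50 to 100 kb (481). The density at 2 to 10 kb was thus 1.26 times that at 50 to 100 kb (exact conditional interval 1.10 to 1.44), and 1.39 times without multi-copy sites (1.19 to 1.61). With peaks scoring 100 or more it was 1.19 (0.970 to 1.45), an interval that includes 1. The peaks of single lists gave 1.36, 1.23 and 1.17 in replicates 1, 2 and 3, all in the same direction. In gene deserts the density was 1.22 sites per Mb, against 2.40 in the intergenic space within 100 kb.

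Upstream of starts lay 1164 sites and downstream 630, but per Mb of available sequence the ratio was 0.984 (0.892 to 1.09). The sides differed in their course. Downstream the density went from 3.39 per Mb (2.39 to 4.67) at 2 to 5 kb to 1.84 (1.57 to 2.13) at 50 to 100 kb, while upstream it was 2.39 (1.97 to 2.88) and 2.40 (2.14 to 2.69) at the same distances. Among the nearest sites to a start were those of Gp1bb (2007 bp; 293, 169 and 312) and Mrps23 (2031.5 bp; 529, 109 and 212). The farthest were those of Gm8882 (99602.5 bp; 151.4, 290 and 974), Mbl2 (99224 bp; 361, 183 and 356) and Gm11074 (98934 bp; 52.6, 87.9 and 146). At the limits of the class, the sites just inside and just outside were as follows. There were 30 common sites outside genes at 1500 to 2000 bp from a start (median percentiles 85.2, 75.8 and 94.0) and 27 at 2000 to 2500 bp (78.9, 59.9 and 92.6). At 90 to 100 kb there were 61 (76.7, 55.1 and 91.97), and at 100 to 110 kb 50 (81.8, 67.6 and 93.8).

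**Figure D4:**
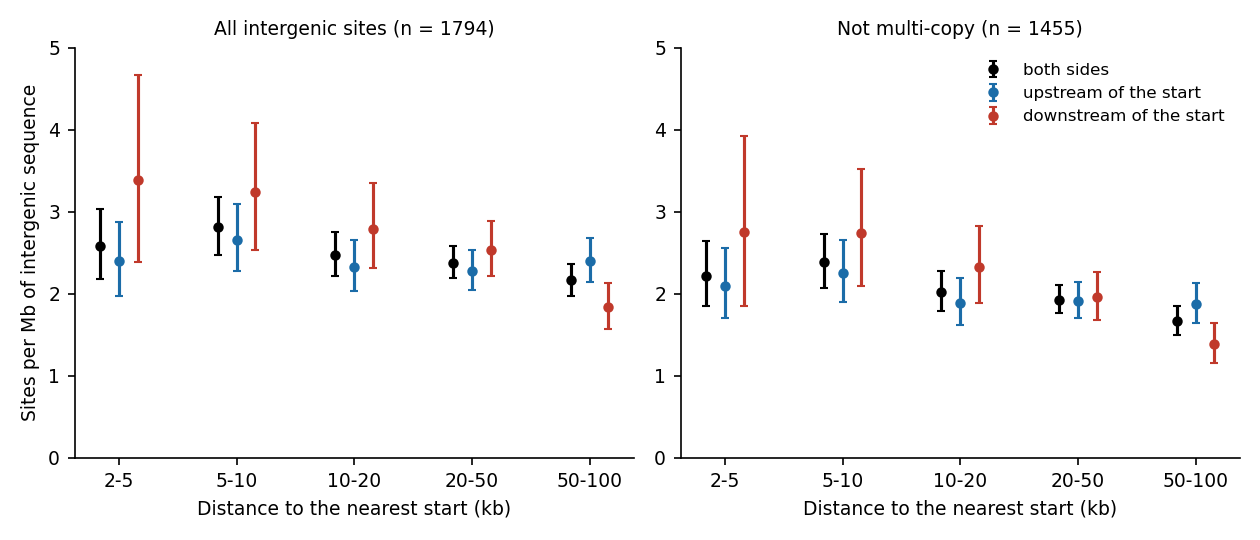
Intergenic SOX3 sites per Mb of intergenic sequence (vertical axis) by distance to the nearest protein-coding start (horizontal axis, kb), for both sides (black), upstream (blue) and downstream (red), with exact 95% Poisson intervals. The left panel holds all 1794 sites and the right panel the 1455 that are not multi-copy. The downstream density is lowest at 50 to 100 kb in both.

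Sites lay near each other in part. Another intergenic site was within 5 kb for 258 sites (14.4%) and within 50 kb for 623 (34.7%). These counts include runs of multi-copy sites, such as the 21 nearest to Pdia4 and the 18 nearest to Ezh2, and were not made without them. By chromosome the density ran from 1.09 sites per Mb on X to 4.52 on chromosome 19, with 0 on Y, where a count of 0 allows up to 3.21 per Mb. Chromosome 6 had 2.91 sites per Mb, and 1.55 without multi-copy sites.

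Sites in small nuclear RNA genes were among those with the highest scores. An annotated snRNA or snoRNA gene overlapped 32 intergenic sites, and their median percentiles were 99.8, 99.7 and 99.96 in replicates 1, 2 and 3. An snRNA gene was in 1.73% of intergenic sites (1.22 to 2.44%), against 0.827% of promoter sites, 0.243% of sites in genes and 0.316% of gene desert sites. These genes encode the RNAs of the spliceosome, and the annotation treats them as noncoding, so that their own starts count as intergenic. Of the 10 highest sites that were not multi-copy, 7 overlapped such a gene.

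U1 genes, whose RNA pairs with the upstream end of introns, held several of these sites. Upstream of Gm16382 on chromosome 12, 6 multi-copy sites scored 2316 to 3100 in replicate 1, 1682 to 2866 in replicate 2 and 3100 each in replicate 3, where this value recurs. A site near Fcgr1 (chr3:96131909-96133618), also in a U1 gene and not multi-copy, had 2654, 2185 and 3100. Upstream of Mreg, 3 sites lay in a U2 gene and in snRNA genes to which the annotation gives no family name. They scored 1879, 2405 and 1690 in replicate 1, 1783, 1781 and 1497 in replicate 2, and 3100 in each case in replicate 3. The second of them is printed above, and the end of its window recurs in the window of the U2 site near Arl4d. The site next to Pecr (chr1:72301245-72302676), in an unnamed snRNA gene, had the highest lowest percentile over the replicates among sites that were not multi-copy, with 3007, 2335 and 3100. A site in a U2 gene near Arl4d (chr11:101519173-101520309) scored 2501, 1771 and 3100. Sites also lay in U11 (Taf12: 690, 567 and 892), U4 and U5 genes and in Snord118, the U8 snoRNA (Tmem107: 658, 762 and 1295). The lowest percentile of any of the 32 sites in any replicate was 91.2.

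The other 3 of these 10 sites lay in no annotated small RNA gene. The site 74378.5 bp downstream of Gm10797 (chr10:67108772-67109565) scored 2648, 1706 and 3162, the highest value of replicate 3 among intergenic sites. The site 68278.5 bp upstream of Sox13 had 2012, 1515 and 3049, and that 38130.5 bp downstream of Dhrs9 (chr2:69256181-69257084) had 3041, 1463 and 2837, with the composite printed above. Among sites with the composite, Dhrs9 and Sox21 (2370, 973 and 1625) were followed by Klf13 (1694, 771 and 1639), a zinc finger gene, Mcf2l (913, 699.9 and 1409), Galnt7 (993, 666 and 1160), Tcf7 (849, 581 and 1051), a transcription factor gene of WNT signalling, Spaca7 (786, 577 and 1204) and H2afb1 (784, 525 and 830).

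A lincRNA gene overlapped 66 intergenic sites (3.68%), against 5.48% of promoter sites, 1.58% of sites in genes and 1.90% of gene desert sites. Any noncoding gene or pseudogene overlapped 161 (8.97%), against 9.20% of promoter sites, 3.46% of sites in genes and 5.37% of gene desert sites. A B-box was in the central window of 49 intergenic sites (2.73%, 2.07 to 3.59%), of which 16 were multi-copy and 14 on chromosome 6. The flanks held it in 1.65%, tiles in 1.02%, sites in genes in 0.303%, and gene desert sites in 0.211%. This word was added after the data were seen, and in sites that were not multi-copy its difference from flanks included 0 (2.27% against 1.79%, -0.371 to 1.47 points). Without multi-copy sites, the interval of its difference from promoter sites also included 0 (1.07 points, -0.113 to 2.12). The site near Adamts18 printed above had the highest scores of these, with 1233, 579 and 1152, and the median percentiles of the 49 were 74.6, 46.0 and 88.7.

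The intergenic sites had 1409 nearest genes, 6.3% of the 22367 protein-coding genes, and 5.42% (1213 genes) without multi-copy sites. Of these genes, 1170 had 1 site, 177 had 2, 34 had 3 and 17 had 4. The 3 genes with the most sites, Pdia4 (21), Ezh2 (18) and Atg7 (13), lie on chromosome 6 and had only multi-copy sites. Hrh1, Gm16382 and Zmat1, with 6 each, also had only multi-copy sites. BC107364 had 9 sites, 6 of them multi-copy. Scores at the 18 sites of Ezh2 were low (89.5 to 135 in replicate 1, 54.03 to 75.2 in replicate 2, 74.04 to 145 in replicate 3), and several sites had the same 3 scores.

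Among genes with many sites that were not multi-copy, Hs6st1, a heparan sulfate 6-O-sulfotransferase, had 6. They lay from 3286.5 to 64666 bp away, 5 of them upstream, with scores from 71.9 to 301 in replicate 1, 51.5 to 190 in replicate 2 and 69.2 to 273 in replicate 3. Sulf1, which removes 6-O-sulfates from the same sugar chains, had 5, of which 1 was multi-copy, all upstream and at 105.93 to 719, 78.1 to 272 and 121 to 526. Klf9, a zinc finger transcription factor gene, had 5 upstream sites with scores from 113 to 482, 50.09 to 408 and 88.6 to 809.6. Its weakest site in replicate 2 stood at the lowest end of that list.

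Developmental transcription factor genes had more sites for their space than other genes. The sites per Mb of intergenic sequence nearest to the genes of a list were set beside the 2.40 of all genes, since genes with large neighbourhoods have more room. For the 183 genes of the SOX, POU, homeodomain, bHLH, Zic-Gli-Fezf-NFI and Fox lists there were 87 sites, or 6.16 per Mb (exact Poisson interval 4.93 to 7.60), 2.57 times the value of all genes. Of these genes 53 (28.96%) had a site, against 6.3% of all genes. Without multi-copy sites the ratio was 3.02. The peaks of single lists gave 1.94 in replicate 1, 2.04 in replicate 2 and 1.08 in replicate 3, so the list with the most peaks was near the value of all genes. Without replicate 2 the ratio was 2.25.

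**Figure D5:**
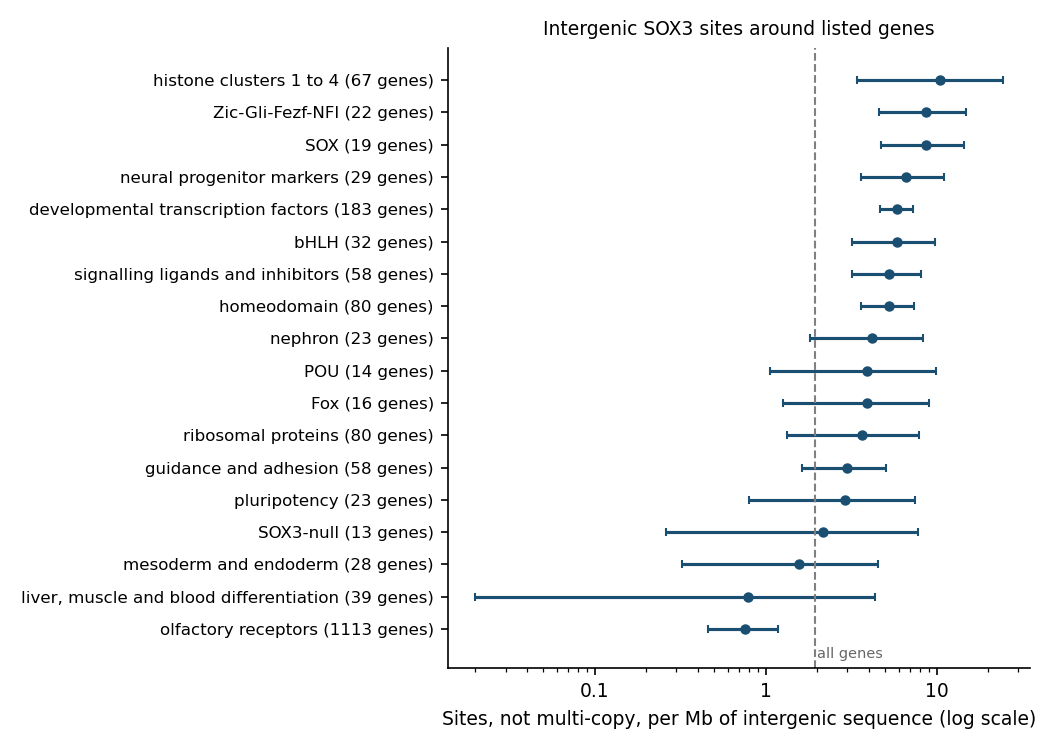
Intergenic sites that are not multi-copy per Mb of intergenic sequence (horizontal log axis) nearest to the genes of each list, with exact 95% Poisson intervals and the number of genes. The dashed line marks the 1.94 per Mb of all genes, below which the olfactory receptor genes lie with their whole interval.

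SOX genes stood high among the families. Of 19 SOX genes, 6 had a site, with 14 sites in all, or 8.63 per Mb (4.72 to 14.5), and none was multi-copy. Sox2, a SOXB1 gene of both ES cells and neural progenitors, had 4 sites. The strongest, at chr3:34552640-34553230 and 3877 bp downstream of the start, scored 1004, 608 and 1031 in replicates 1, 2 and 3, and its only SOX word of those searched was the ACAATGG printed above. The others scored 539, 292 and 453 (90782.5 bp upstream), 255.9, 153 and 216 (9812.5 bp downstream), and 352, 165 and 273 (18497.5 bp downstream). Each replicate put the site at 3877 bp first of these 4.

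Sox13, a SOXD gene, had 4 upstream sites. The site at chr1:135388850-135389615 scored 2012, 1515 and 3049, with 5 SOX words in its central 200 bp, and the 3 others lay between 285 and 749 in replicate 1, 240 and 384 in replicate 2, and 489 and 590.0 in replicate 3. Sox21, a SOXB2 gene that acts against SOXB1 proteins in progenitors, had 1 site, 5562.5 bp downstream, with 2370, 973 and 1625. Sox9, a gene of glial and neural crest development, had 3 downstream sites between 16913 and 33459 bp, with 257, 413 and 128 in replicate 1, 138, 185 and 106 in replicate 2, and 178, 301 and 181 in replicate 3, and 2 of these held the composite. Sox14 (432, 60.8 and 124) and Sox11 (101, 59.9 and 152) had 1 site each, both low in replicate 2.

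POU genes had 4 sites at 2 of 14 genes, or 3.90 per Mb (1.06 to 9.99), an interval that contains the value of all genes. Pou3f1, a POU gene of early neural cells, had 3 sites with scores of 100.09, 288 and 132 in replicate 1, 77.7, 133 and 55.6 in replicate 2, and 133, 220 and 116 in replicate 3. Pou3f3 had 1 site with 55.5, 89.8 and 177. The site of Pou3f1 at 4485 bp downstream stood above the intergenic median percentile in each replicate. The site at 10238 bp was the weakest of the 3 in replicates 2 and 3, at percentile 17.1 in replicate 2. In replicate 1 the weakest was the site at 10845 bp.

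Homeodomain genes had 35 sites at 23 of 80 genes, or 5.55 per Mb (3.87 to 7.72). Irx3, which patterns the neural tube, had 4 upstream sites between 70.9 and 318 in replicate 1, 61.2 and 143 in replicate 2, and 71.7 and 298 in replicate 3. Nkx2-1, a gene of the ventral forebrain, had 2 downstream sites, and the farther (77908.5 bp) scored 1236, 863 and 1861 against 277, 341 and 602 for the nearer. Msx3, a gene of the dorsal neural tube, had 2 upstream sites, with 506, 213 and 273 at 9137 bp and 1127, 285 and 375 at 12101 bp. Otx2, a gene of the forebrain and midbrain, had 3 sites, all over 55 kb upstream, of which the strongest scored 182, 179 and 313.

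bHLH genes had 16 sites at 12 of 32 genes, or 6.70 per Mb (3.83 to 10.9). Olig3, a progenitor gene of the dorsal spinal cord and hindbrain, had a site 47969 bp downstream with 1434, 709 and 1339. Hey1, a target of Notch signals, had 1 with 762, 351 and 563. Hes5, another Notch target of neural progenitors, had 2 upstream sites with low scores, 63.8 and 54.0 in replicate 1, 58.4 and 68.02 in replicate 2, and 70.3 and 77.9 in replicate 3. Both sites of Olig1 were multi-copy.

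The Zic-Gli-Fezf-NFI list, zinc finger and NFI genes, had 13 sites at 6 of 22 genes, or 8.64 per Mb (4.60 to 14.8). Sall1 had 4 downstream sites, of which the strongest scored 457, 309 and 625. Zic2 had 1, 5013 bp downstream, with 237, 107 and 175. Fox genes had 5 sites at 4 of 16 genes, or 3.90 per Mb (1.27 to 9.09), and the site of Foxa2, a gene of the floor plate and endoderm, scored 527, 255 and 398.

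Signalling genes had 20 sites at 13 of 58 genes, or 5.24 per Mb (3.20 to 8.10), none multi-copy. Spry2, an inhibitor of FGF signalling, had 3 sites, and the strongest of them, 23980.5 bp upstream, scored 2778, 1327 and 2561. The others had 537, 216 and 371, and 317, 80.6 and 316. Dll1, a Notch ligand of newly born neurons, had a site 4769.5 bp upstream with 1128, 447 and 637 and another with 126, 195 and 302. Neural progenitor markers had 14 sites at 8 of 29 genes, or 6.62 per Mb (3.62 to 11.1), among them Sox2 and Pax6, which other lists also hold. Guidance and adhesion genes had 14 sites at 9 of 58 genes, or 3.00 per Mb (1.64 to 5.03), an interval that contains the value of all genes, while the peaks of single lists gave 0.918, 0.981 and 0.896 times that value. Epha4, a receptor of axon guidance, had 3 within 82664.5 to 86726.5 bp upstream, the strongest with 570, 429 and 849.

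Lists of other tissues, cell states and housekeeping genes were counted in the same way. Pluripotency genes had 4 sites at 4 of 23 genes, or 2.91 per Mb (0.793 to 7.45), and Lefty1, an inhibitor of Nodal, had the strongest with 824, 570 and 1263. Mesoderm and endoderm genes had 3 sites (1.56 per Mb, 0.321 to 4.56), nephron genes 8 (4.21, 1.82 to 8.29), and liver, muscle and blood genes 1 (0.784, 0.0198 to 4.37). The nephron and the mesoderm and endoderm lists are not separate from the transcription factor lists. Sall1, with 4 of the nephron sites, and Foxa2, with 1 of the mesoderm and endoderm sites, are counted in both. Ribosomal protein genes had 7 (4.25, 1.71 to 8.76) and histone genes of clusters 1 to 4 had 5 (10.5, 3.42 to 24.6), on only 0.474 Mb of available sequence, and the histone interval alone among these lay wholly above the 2.40 of all genes. In the peaks of single lists the histone genes gave 3.67, 4.54 and 1.49 times the value of all genes, the nephron genes 1.76, 1.42 and 1.09, and the ribosomal protein genes 1.55, 1.64 and 1.16. Olfactory receptor genes, known for their use in the nose, had 25 sites at 21 of 1113 genes, or 0.999 per Mb (0.646 to 1.47). On the same measure of single lists they gave 0.535, 0.538 and 0.807 times the value of all genes.

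Genes that the study names for intergenic peaks in brain development were looked up one by one. Pax6, a homeodomain gene of forebrain progenitors, had 2 sites, 52375 and 56598.5 bp upstream, with 438, 281 and 456 and with 289, 346 and 604, and the first held the composite. Wnt8b, a WNT ligand of the forebrain, had 1 site 21681.5 bp downstream with 745, 696 and 1319. Wnt8a, another WNT ligand, had 2 downstream sites with 182, 117 and 197 and with 591, 238 and 401. Gli3 and Smo, of the Hedgehog pathway, had none in this class, and each had 2 common sites of other classes. The study also lists 13 genes changed in Sox3 null NP cells that have SOX3 sites nearby, a list chosen with these samples and so no independent evidence. Of them 2 had an intergenic site, Fgfr3, an FGF receptor gene (486, 357 and 522), and Ctgf, a secreted matrix-associated protein (88.3, 122 and 160). That is 15.4% of the 13 genes, beside 6.3% of all genes, and 2.17 sites per Mb (0.262 to 7.83), an interval that contains the value of all genes.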

How the data were processed

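The 3 lists of SOX3 ChIP-seq peaks were used, 1 per replicate. As deposited, the lists give positions and a score, which the authors computed with MACS for each replicate against input, as 10 times the −log10 of the p-value (threshold 1e-05). Per the submitters' notes and the methods of the study, reads were aligned to mm9 with Bowtie 1.0.0. Scores are not normalized between replicates, depend on an unknown depth and pile up at 3100, so percentiles within a list were used. Read counts and the input were not analysed here.

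Peaks overlapping by at least 1 bp were merged, and regions with a peak of each list were placed by their middle on GENCODE vM1 (22367 protein-coding genes). Starts were those of protein-coding transcripts. Available sequence was the intergenic length nearest to a start, by distance. Words were counted in 200 bp windows, in flanks 2000 bp to each side and in 3741266 tiles. No test across sites gave a p-value. Shares have 95% Wilson, differences Newcombe, densities exact Poisson and ratios exact conditional intervals, for counting error only.

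The members and lists were chosen with earlier results of these data known. The text names the genes with the most sites, the highest-ranked sites (lowest percentile of the 3 replicates), listed genes with the most sites, sites with the composite, the 3 shortest and 3 farthest sites, and genes the study names; some of these items are not reported here. The scripts were tested on simulated data. Python 3.11.15, numpy 2.4.6, scipy 1.17.1, numba 0.67.0 and matplotlib 3.10.9 were used.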

Additional observations from a re-analysis of the deposited data

How the results depend on the processing

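The 9 results were recomputed under 15 other settings, and 111 of 124 values stayed within 1.5 times the reported value for counts, 1 SD of the 3 replicate medians for percentiles, and the interval of the reported value for shares and ratios. Only peaks with a score of 100 or more left 888 intergenic sites and 755 nearest genes, with AACAAA or AACAAT in 53.2% of sites, the composite in 9.01%, a median percentile of 83.1 in replicate 2 and a ratio of 3.22 for developmental transcription factors. There the ratio of densities by distance was 1.19 (0.970 to 1.45), an interval that includes 1. AACAAA or AACAAT was in 51.0% of sites with equal numbers of peaks (8096 per list), 54.0% without multi-copy sites and 63.0% over whole merged regions. Leaving out 1 replicate at a time gave 1817 to 2673 sites, 1426 to 2038 genes, AACAAA or AACAAT in 45.1 to 48.2%, the composite in 5.42 to 7.10%, a median percentile in replicate 2 of 48.97 to 63.7, a density ratio of 1.23 to 1.26 and a transcription factor ratio of 2.04 to 2.57. The lowest shares and ratio came without replicate 1. The limit of 50 kb gives no ratio of densities by distance. Leaving out sites in snRNA or snoRNA genes, chosen after the data were seen, left 1762 sites and moved no value beyond these limits. Depth is unknown, so that a site missing from a list may lie below the threshold there. No paired analysis was possible because the 3 replicates belong to 1 group.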
